A study of Bombyx mori with 12 samples.

Results

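Cytosolic ribosomal protein genes of the silkworm Bombyx mori were examined in 12 poly(A) RNA libraries from the head and thorax of larvae. A gene was counted as a member when its NCBI symbol began with RpS, RpL or RpP followed by a number, which left out the mitochondrial ribosomal proteins (symbols in mRp). Of 17583 rows in the count table, 77 met this rule. The small subunit had 31 of them and the large subunit 46, of which 2 (RpP0 and RpP1) bore an RpP symbol. All 77 passed the filter on low counts, which left 10721 genes to test.

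The larvae belonged to a strain that the labels spell Gurangri 3 and the series text spells Guangri 3, and were taken at the third molt. They were either tetramolters, which go on to an extra molt, or trimolters, and each kind came from both of 2 labelled batches. The 4 groups of 3 libraries were thus batch 1 tetramolters, batch 1 trimolters, batch 2 tetramolters and batch 2 trimolters, with no other treatment labelled. The study reared larvae on mulberry leaves in spring and again in the warmer autumn. No label gives a batch its season, and season, rearing temperature and batch cannot be told apart. The tissue was pooled head and thorax, and no label ties a library to 1 animal, so p-values measure the spread between these libraries, which may be technical in part.

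A ribosome is built from a small subunit, which holds the mRNA and reads its codons, and a large subunit, which joins the amino acids and lets the growing chain out through a tunnel. Each ribosomal protein is usually present once per ribosome, so cells make the proteins of both subunits in matched amounts, and their mRNAs are among the most abundant in growing animal tissue. The exception is the stalk of the large subunit, where the protein P0 carries several copies of the acidic proteins P1 and P2 and recruits the elongation factors.

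Library totals ranged from 13449541 to 15650612 counts. Shares were taken of the counts outside the loci that the authors numbered. The members took 11.8%, 11.0% and 10.8% of these counts in the batch 1 tetramolters, against 5.32%, 7.11% and 5.94% in the batch 1 trimolters. In batch 2 their share was 6.81%, 6.99% and 6.68% in the tetramolters, against 7.63%, 7.85% and 7.36% in the trimolters. The batch 1 tetramolters thus stood above every other library, and in batch 2 the tetramolters lay a little below the trimolters, without overlap. The mean share was 11.2% ± 0.529 in batch 1 tetramolters and 6.12% ± 0.909 in batch 1 trimolters, and 6.83% ± 0.156 in batch 2 tetramolters and 7.61% ± 0.245 in batch 2 trimolters (SD, n = 3 each). In bulk tissue, more cells of a type with many ribosomes and more ribosomal protein mRNA per cell cannot be told apart.

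**Figure D1:**
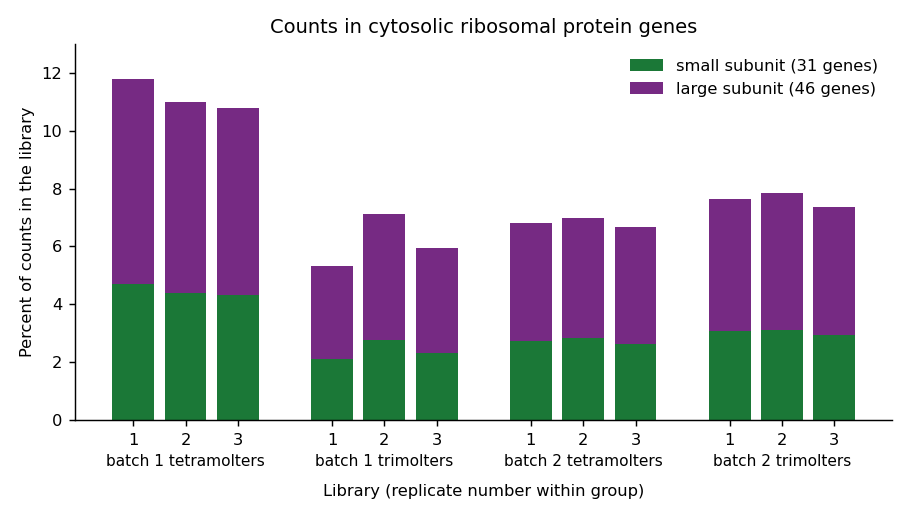
Percent of each library's counts (y axis) in the 31 small-subunit genes (green) and the 46 large-subunit genes (purple, stacked on top), for the 3 libraries of each group. Counts of the loci that the authors numbered are left out of the library's counts. The batch 1 tetramolters reach 10.8% to 11.8%, and the other 9 libraries lie between 5.32% and 7.85%.

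The balance between the subunits moved little. Small-subunit genes held 0.636 to 0.681 counts per count of large-subunit genes over the 12 libraries. On the authors' FPKM scale, which divides fragments by transcript length and by depth, the median small-subunit gene was at 0.999 to 1.09 times the level of the median large-subunit gene in the 11 libraries with FPKM values. The median member had 2088 to 2455 FPKM in the batch 1 tetramolters, against 942 and 1065 FPKM in the 2 batch 1 trimolters with values. The library without values, batch 1 trimolter 2, had the highest member share of counts in its group (7.11%). FPKM values of batch 1 trimolters thus leave out the library nearest the tetramolters. It had 1251 to 1309 FPKM in the batch 2 tetramolters, against 1461 to 1502 FPKM in the batch 2 trimolters.

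The 77 genes were taken by symbol alone, and whether each symbol is right was not examined. RpL20 (gene ID 692841) and RpL7Ae (692972) had the lowest mean FPKM of the set in each of the 4 groups. They also moved against most of the other 75 genes. RpL20 had 1.42% to 5.19% of the FPKM of the median member, as group means, and RpL7Ae had 0.978% to 9.80%. RpL39 stood at 11.4% to 33.2%, and in batch 2 tetramolters the libraries of RpL7Ae (115, 121 and 140 FPKM) overlapped those of RpL39 (147, 170 and 120 FPKM). RpL7A is a separate member at the usual level, with a batch 1 log2 fold change of 0.85. RpL20 and RpL7Ae are therefore described on their own further down, and some summaries are given for the other 75 genes, a split made after their values were seen.

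In batch 1, tetramolters had more mRNA for nearly every ribosomal protein than trimolters. By edgeR's quasi-likelihood test at an adjusted p under 0.05, 74 of the 77 genes rose, 2 fell (RpL20 and RpL7Ae) and 1 did not pass (RpP0). Over all tested genes 22.5% rose and 22.7% fell, or 45.2% in either direction. The median log2 fold change of the members was 1.06, against 0.01 for all tested genes. The small subunit rose in 31 of 31 genes with a median of 1.07, and the large subunit in 43 of 46 with a median of 1.01. Of the 77 genes, 45 rose by at least 1 log2 unit, against 9.62% of all tested genes. Tetramolter and trimolter libraries did not overlap for 76 of 77 members, a separation shown by 53.7% of all tested genes.

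RpS29 (692725), a zinc-binding protein in the head of the small subunit, changed the most. It had 420, 454 and 354 CPM (counts per 1e6 counts, with library totals scaled by TMM factors) in the batch 1 tetramolters, against 75.9, 84.2 and 78.6 CPM in the batch 1 trimolters. All 3 tetramolter libraries lay several times above all 3 trimolter libraries, and the log2 fold change was 2.36 (SE 0.15, edgeR adjusted p = 3.66e-06). RpL39 (692711), a very small protein that lines the exit tunnel, had 171, 190 and 143 CPM in the batch 1 tetramolters, against 30.1, 45.2 and 33.3 CPM in the batch 1 trimolters. The groups were again far apart, with a log2 fold change of 2.22 (SE 0.19, edgeR adjusted p = 1.43e-05). RpL37A (692710), a zinc-binding protein of the large subunit, had 887, 772 and 686 CPM in the batch 1 tetramolters, against 173, 224 and 163 CPM in the batch 1 trimolters. Its log2 fold change was 2.07 (SE 0.17, edgeR adjusted p = 1.12e-05). RpL29 (693065) and RpL37 (692709) rose by 1.82 and 1.69, RpL27 (692703) by 1.68, and the small-subunit genes next to RpS29 were RpS21 (692689) at 1.58 and RpS27 (692724) at 1.51.

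At the low end of the genes that rose in batch 1 stood long, abundant ones. RpL4 (692659), whose extension reaches into the exit tunnel, had 3982, 4034 and 3935 CPM in the batch 1 tetramolters, against 2489, 3507 and 2840 CPM in the batch 1 trimolters. The groups did not overlap, but 1 trimolter library came close, and the log2 fold change was 0.44 (SE 0.14, edgeR adjusted p = 0.0206). This call was lost without batch 1 trimolter 3 (adjusted p = 0.0611) or without any 1 of the 3 batch 1 tetramolters (adjusted p = 0.0658 to 0.0759, edgeR). It was also lost with the length trend removed, without a filter on low counts and in a fit to the compared groups alone (adjusted p = 0.125, 0.0555 and 0.105, edgeR). RpL10 (692602), which joins the large subunit late near its catalytic centre, rose by 0.60. RpS3 (692712), at the point where mRNA enters the small subunit, rose by 0.64, as did RpS4 (692714). With the length trend removed the calls of RpL10 and RpS3 were lost (adjusted p = 0.0992 and 0.0502, edgeR). RpS6 (732855), the protein phosphorylated by S6 kinase in TOR signalling, rose by 0.73, and RpS2e (732854) by 0.75.

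RpP0 (692657), the base of the stalk, was the 1 member that passed in neither direction. It had 1807, 1840 and 1832 CPM in the batch 1 tetramolters, against 1500, 2245 and 1734 CPM in the batch 1 trimolters. The trimolter libraries lay on both sides of the tetramolter libraries, and the log2 fold change was -0.00 (SE 0.15, edgeR adjusted p = 0.999). RpP1 (778451), the acidic protein that P0 carries, had 2403, 1879 and 1923 CPM in the batch 1 tetramolters, against 1057, 1418 and 1047 CPM in the batch 1 trimolters. RpP1 rose with the other members, by 0.82 (SE 0.15, edgeR adjusted p = 0.00108). No row bore the symbol RpP2. RpLP2, which carries the synonym Rpp2 and falls outside the rule, rose by 1.08 (SE 0.14, edgeR adjusted p = 1.40e-04). LOC692701, which carries the synonym RpL24, rose by 1.45 (SE 0.13, edgeR adjusted p = 1.50e-05). RpSA, another ribosomal protein gene outside the rule, rose by 0.64 (SE 0.14, edgeR adjusted p = 0.00267).

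**Figure D2:**
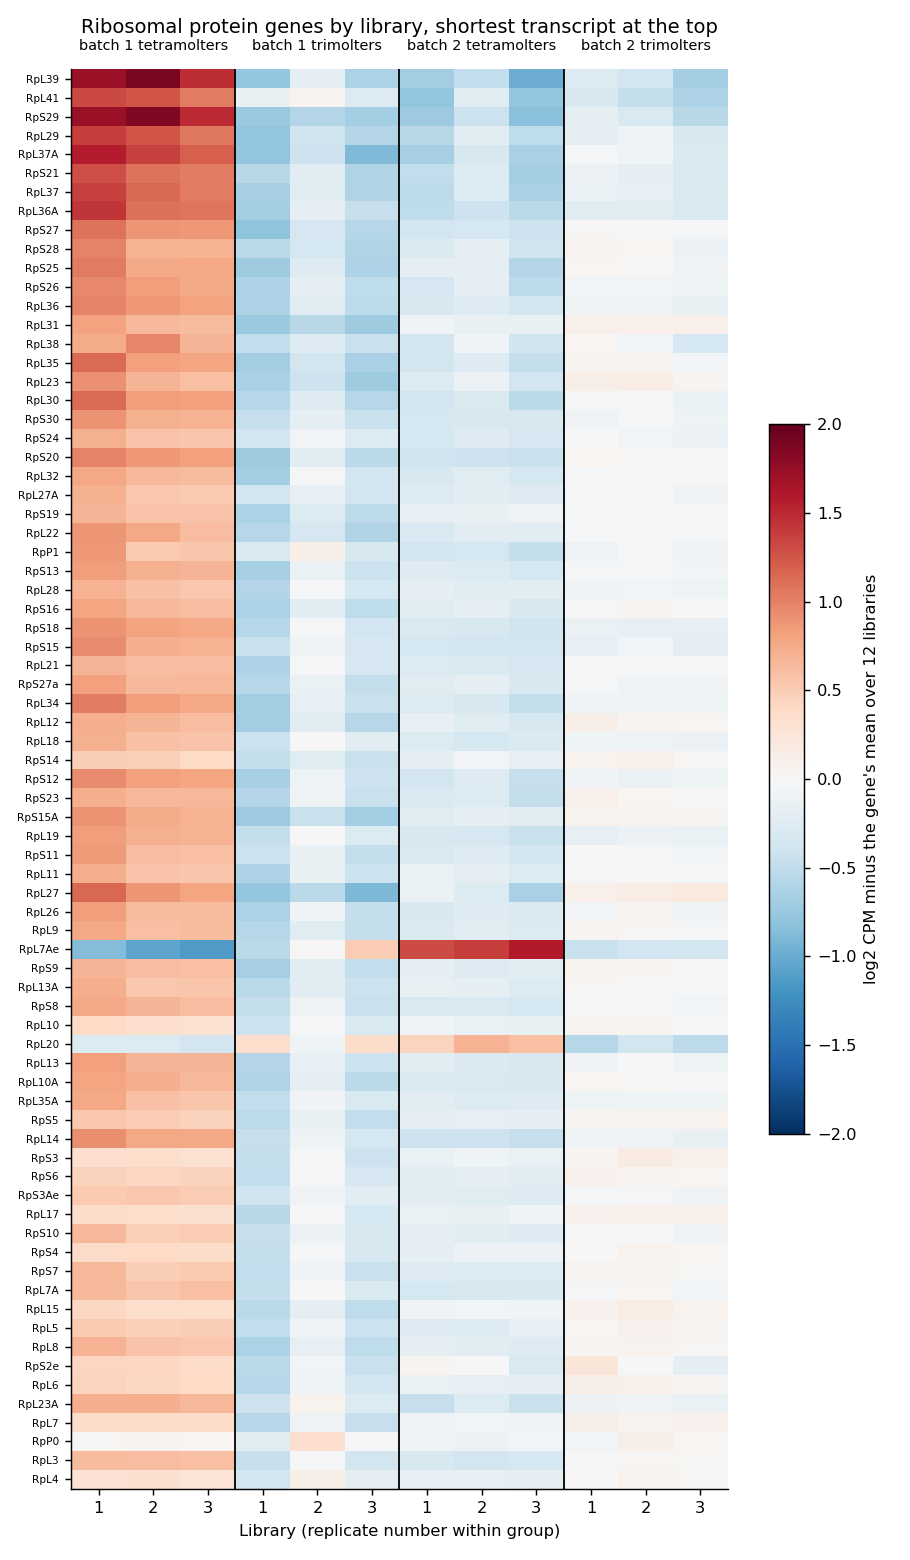
Level of 75 of the 77 genes (rows, shortest implied transcript at the top) in each library (columns, by group), as log2 CPM minus the gene's mean over the 12 libraries, with red above and blue below that mean. The 3 batch 1 tetramolter columns are red in nearly every row and deepest at the top, while RpL7Ae and RpL20 are highest in batch 2 tetramolters and RpP0 is nearly flat.

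The size of the batch 1 change followed transcript length. Length was inferred from count and FPKM, and ran from 219 to 1477 bases over the members with a median of 600, against a median of 2354 for the other tested genes. Across the 75 genes without RpL20 and RpL7Ae, the log2 fold change fell with log2 length (Pearson r = -0.815, Spearman rho = -0.799), and it did so within the small subunit (r = -0.853, n = 31) and the large subunit (r = -0.803, n = 44). These are correlations across genes that share the same 6 libraries and are not independent replicates. For the 11 members under 400 bases the median change was 1.64, for the 27 of 400 to under 600 bases 1.14, for the 26 of 600 to under 900 bases 1.00, and for the 11 of 900 bases and over 0.77. Genes that were no member had medians of 0.35 (76 genes), 0.28 (276), 0.21 (702) and -0.02 (9590) in the same bands, which were set after the data were seen. Over all 10644 of those genes r was -0.120. For batch 2 against batch 1, r over the 75 members was 0.796 between tetramolters and -0.0104 between trimolters. The same correlations over the 10644 other genes were -0.0338 and -0.107. The comparison between tetramolters reuses the batch 1 tetramolter libraries.

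Some members stood off this trend. RpL27, at 628 bases, had 1283, 1071 and 1003 CPM in the batch 1 tetramolters, against 337, 396 and 311 CPM in the batch 1 trimolters. Its log2 fold change of 1.68 (SE 0.16, edgeR adjusted p = 2.31e-05) was the largest of the members from 600 to under 900 bases. RpL41 (724046), the smallest ribosomal protein, had 483, 463 and 394 CPM in the batch 1 tetramolters, against 174, 199 and 160 CPM in the batch 1 trimolters. At 249 bases its log2 fold change was 1.33 (SE 0.17, edgeR adjusted p = 1.14e-04), below those of RpL39 and RpS29 of like length. With a smooth trend in length over all genes removed from each library, the batch 1 median of the 77 members was 0.68, 71 rose and 2 fell, and r over the 75 genes was -0.675.

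**Figure D3:**
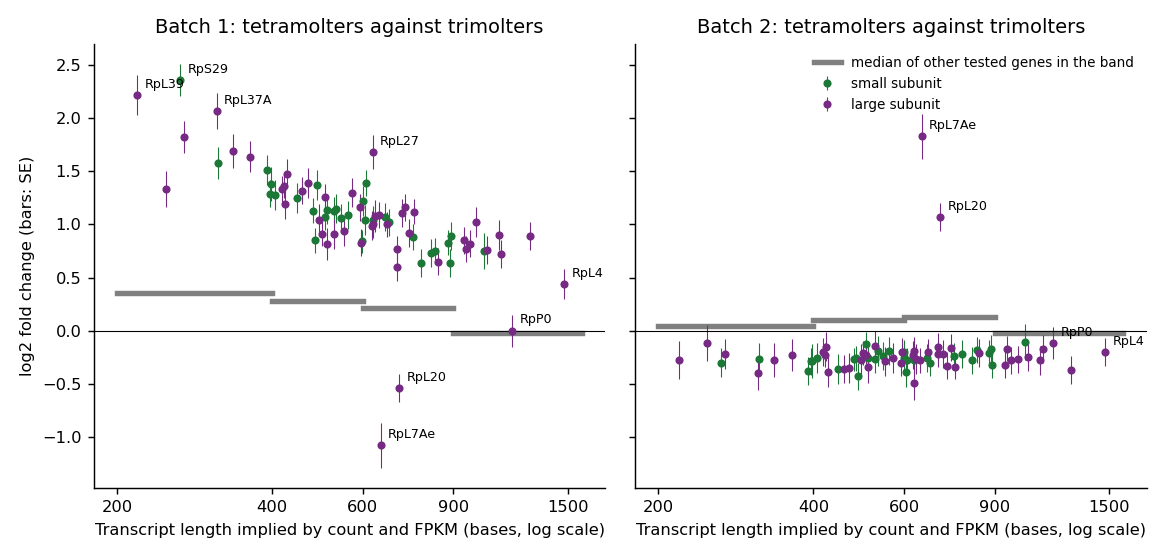
Log2 fold change of tetramolters against trimolters (y axis, bars show SE) against implied transcript length (x axis, log scale) for the 77 genes in batch 1 (left) and batch 2 (right), with grey lines for the median of the other tested genes in each length band. In batch 1 the points slope down from 2.36 for RpS29 to 0.44 for RpL4, with RpP0 lower at -0.00. RpL20 (-0.54) and RpL7Ae (-1.08) lie below RpP0 there. In batch 2 all points but RpL7Ae and RpL20 lie between -0.49 and -0.11 with no downward slope. There r was 0.176 over the 75 genes without RpL20 and RpL7Ae, and 0.410 within the small subunit.

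Per length, RpS29 and RpL39, the genes with the largest batch 1 changes, were low members of the set, and other short transcripts varied. RpL37 stood at 370% of the FPKM of the median member in batch 1 tetramolters and at 222% in batch 2 trimolters. For RpS27 these shares were 138% and 112%. Lower shares were found for RpL37A (108% and 59.6%), RpL29 (87.2% and 50.6%) and RpL41 (77.6% and 38.1%) in the same groups. RpS29 stood at 66.6% of the FPKM of the median member in batch 1 tetramolters, against 28.9% in batch 1 trimolters, and at 24.1% in batch 2 tetramolters, against 25.4% in batch 2 trimolters. For RpL39 these shares were 33.2% in batch 1 tetramolters against 14.3% in batch 1 trimolters, and 11.4% in batch 2 tetramolters against 11.9% in batch 2 trimolters. RpP0 showed the opposite order, with 67.7% in batch 1 tetramolters against 137% in batch 1 trimolters, and 113% in batch 2 tetramolters against 106% in batch 2 trimolters. For RpS29, RpL39 and RpP0 the batch 1 tetramolters thus stood apart from the other 3 groups, which lay closer together. RpL41 split by batch instead. Its share in batch 1 trimolters lay nearer to that in batch 1 tetramolters than to its shares in batch 2. Its shares in single libraries overlapped between batch 1 tetramolters and batch 1 trimolters. Over the 11 libraries with FPKM values, RpL37 (4343 FPKM) was the highest of the large subunit and RpS23 (692722, 3342 FPKM), a protein of the decoding centre, the highest of the small subunit, while RpS29 (647 FPKM) was the lowest of the small subunit.

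In batch 2, tetramolters had slightly less ribosomal protein mRNA than trimolters, and few genes passed the test. That test took 1 estimate of the spread per gene over all 12 libraries, not over the batch 2 libraries alone. The median SD of log2 CPM of the members was 0.0497 in batch 2 tetramolters and 0.0389 in batch 2 trimolters. It was 0.224 in batch 1 trimolters, the widest group. By edgeR, 8 of the 77 fell, 2 rose (RpL7Ae and RpL20) and 67 did not pass, while 18.2% of all tested genes fell and 19.5% rose, or 37.7% in either direction. The share of members called lower, 10.4%, was below that background here, but not under every setting. The fitted change was negative for 75 of 77, with a median of -0.26, against -0.01 for all tested genes. The medians were -0.26 for the small subunit and -0.23 for the large subunit. Tetramolter and trimolter libraries did not overlap for 69 of 77 members, against 55.6% of all tested genes.

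The 8 genes that fell were RpS20, RpS23 and RpS27 of the small subunit and RpL3, RpL14, RpL23, RpL27 and RpL35 of the large subunit. RpL27 had 527, 476 and 369 CPM in the batch 2 tetramolters, against 623, 640 and 664 CPM in the batch 2 trimolters. The groups did not overlap, and the log2 fold change was -0.49 (SE 0.16, edgeR adjusted p = 0.0272). RpS20 (778514) had 654, 644 and 632 CPM in the batch 2 tetramolters, against 888, 869 and 840 CPM in the batch 2 trimolters. It fell by 0.43 on the log2 scale (SE 0.13, edgeR adjusted p = 0.0259). RpL3 (692658), which sits beside the catalytic centre, had 2533, 2442 and 2471 CPM in the batch 2 tetramolters, against 3163, 3246 and 3232 CPM in the batch 2 trimolters. Its replicates were tight, and it fell by 0.37 (SE 0.13, edgeR adjusted p = 0.0378). RpS29, the gene with the largest batch 1 change, had 76.3, 94.3 and 71.2 CPM in the batch 2 tetramolters, against 110, 102 and 85.8 CPM in the batch 2 trimolters, and these overlapped (log2 fold change -0.30, SE 0.14, edgeR adjusted p = 0.125).

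The count of 8 changed with the libraries and the tool used. It was 41 in an edgeR fit to the batch 2 libraries alone, or 53.2% of the members against 22.2% of all genes tested in that fit. It was 25 with DESeq2 (32.5% against 19.5%), 27 with the length trend removed (35.1% against 18.4%) and 3 without a filter on low counts (3.90% against 1903 of 14610 genes). It was 36 without batch 1 trimolter 1 (46.8% against 22.5%) and 32 without batch 1 trimolter 2 (41.6% against 20.7%). It was 5 without batch 1 tetramolter 2 or 3, 1 without any 1 batch 2 trimolter or without batch 2 tetramolter 1 or 2, and 0 without batch 2 tetramolter 3, where 13.1% to 17.3% of all tested genes fell. The members thus went from below the background to above it with the setting.

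The change between molting types differed between the batches for nearly the whole set. In the test of that difference, batch 2 change minus batch 1 change, 74 of 77 members were lower, 2 were higher and RpP0 did not pass (edgeR). Over all tested genes 26.8% were lower and 26.7% higher, or 53.5% in either direction. The median difference was -1.32 for the members, -1.34 for the small subunit, -1.28 for the large subunit and -0.01 for all tested genes. RpS29 had the largest negative difference (-2.66, SE 0.21, edgeR adjusted p = 3.33e-06), and RpS4 the smallest of the small subunit (-0.82, SE 0.18, edgeR adjusted p = 0.00235). RpP0 differed by -0.12 (SE 0.21, edgeR adjusted p = 0.634).

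**Figure D4:**
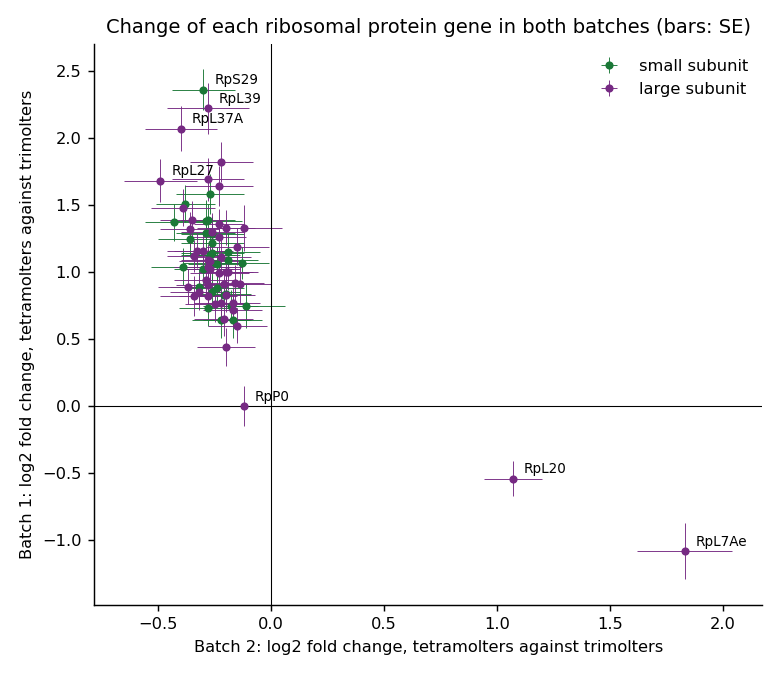
Log2 fold change of tetramolters against trimolters in batch 2 (x axis) and in batch 1 (y axis) for each of the 77 genes, with SE bars, small subunit in green and large subunit in purple. Of the points, 74 lie in the upper left, RpP0 lies near the origin, and RpL20 and RpL7Ae lie in the lower right.

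RpL7Ae and RpL20 ran against the rest in both batches. RpL7Ae had 16.3, 14.3 and 13.6 CPM in the batch 1 tetramolters, against 20.6, 30.3 and 42.5 CPM in the batch 1 trimolters. It had 73.6, 77.6 and 89.7 CPM in the batch 2 tetramolters, against 21.8, 22.9 and 23.2 CPM in the batch 2 trimolters. The batch 2 tetramolters were the high group and the batch 1 tetramolters the low one, without overlap within either batch. The log2 fold change was -1.08 in batch 1 (SE 0.21, edgeR adjusted p = 0.00142) and 1.83 in batch 2 (SE 0.21, edgeR adjusted p = 9.47e-05). The difference of 2.91 had SE 0.29 (edgeR adjusted p = 1.22e-05).

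RpL20 had 23.7, 23.7 and 22.2 CPM in the batch 1 tetramolters, against 36.9, 27.1 and 37.0 CPM in the batch 1 trimolters. In batch 2 it had 39.4, 46.7 and 43.6 CPM in the tetramolters, against 19.4, 22.4 and 20.1 CPM in the trimolters. Again the tetramolters were the lower group in batch 1 and the higher one in batch 2. The log2 fold change was -0.54 in batch 1 (SE 0.13, edgeR adjusted p = 0.00572) and 1.07 in batch 2 (SE 0.13, edgeR adjusted p = 1.43e-04).

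The values of the 10 mitochondrial ribosomal protein genes, which serve the separate ribosome of the mitochondrion, can be set beside those of RpL7Ae and RpL20. Of these 10, 1 rose and 7 fell in batch 1 with a median of -0.85, and 10 rose in batch 2 with a median of 0.86 (edgeR). Over all tested genes 22.5% rose and 22.7% fell in batch 1, and 19.5% rose in batch 2. These directions were not particular to mitochondrial genes. Of 159 tested cuticle protein genes, 92 fell in batch 1 and 86 rose in batch 2. For the mitochondrial genes the difference was called higher for 9 of 10, against 26.7% of all tested genes, with a median of 1.65. The summed level of these 10 genes, in counts per 1e6 counts of the library without TMM scaling, was 157 to 174 in batch 1 tetramolters, against 248 to 347 in batch 1 trimolters. In batch 2 it was 427 to 498 in tetramolters, against 210 to 238 in trimolters. Among them mRpS5 had 28.0, 30.5 and 26.1 CPM in the batch 1 tetramolters, against 72.5, 63.0 and 79.6 CPM in the batch 1 trimolters. These did not overlap (log2 fold change -1.35, SE 0.12, edgeR adjusted p = 1.46e-05). Gene mRpS18C was the exception, with 0.49 in batch 1 and 0.46 in batch 2.

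**Figure D5:**
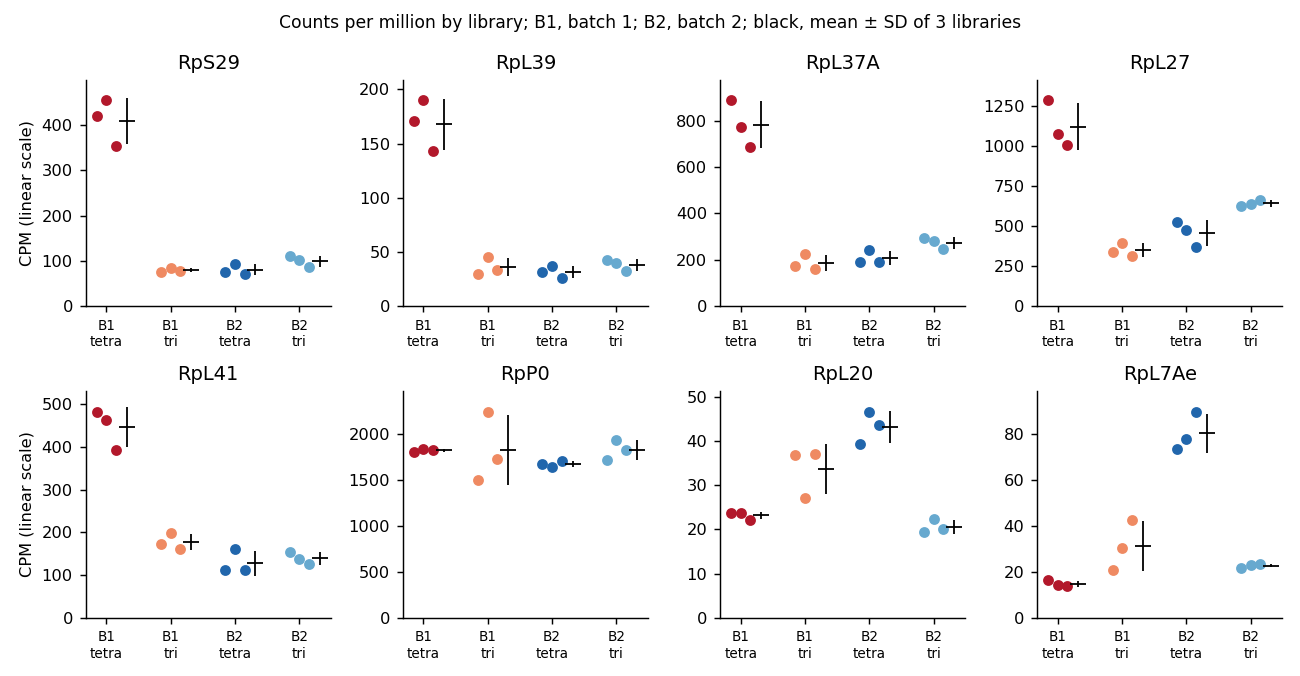
CPM of 8 genes by library (points, linear y axis from 0) in the 4 groups, B1 for batch 1 and B2 for batch 2, with mean ± SD of 3 libraries in black. RpS29, RpL39, RpL37A, RpL27 and RpL41 are highest in batch 1 tetramolters, RpP0 is near 1826 CPM in 3 groups and 1675 CPM in batch 2 tetramolters, and RpL20 and RpL7Ae are highest in batch 2 tetramolters.

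The batches were also compared within each molting type. Tetramolters of batch 2 had less than tetramolters of batch 1 for 74 members and more for 2, and RpP0 did not pass (edgeR), where 29.6% of all tested genes fell and 29.0% rose. The median was -0.97, against -0.02 for all tested genes. The libraries did not overlap for 77 of 77 members, nor for 71.5% of all tested genes. RpL39 had the largest drop, at 31.8, 36.8 and 25.8 CPM in batch 2 tetramolters against 171, 190 and 143 CPM in batch 1 tetramolters, a log2 fold change of -2.42 (SE 0.19, edgeR adjusted p = 2.15e-06). For RpS2e the call (log2 fold change -0.49, SE 0.17, edgeR adjusted p = 0.0235) was lost without batch 1 tetramolter 1 or 2 or batch 2 tetramolter 3 (adjusted p = 0.0597, 0.0611 and 0.102, edgeR), and with the length trend removed (adjusted p = 0.0504, edgeR).

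Trimolters of batch 2 were modestly above trimolters of batch 1. By edgeR, 23 members rose, 1 fell (RpL20) and 53 did not pass, while 7.29% of all tested genes rose and 8.10% fell. The median was 0.33, against -0.02 for all tested genes, with 10 of 31 small-subunit and 13 of 46 large-subunit genes higher. The libraries did not overlap for 54 of 77 members, against 31.1% of all tested genes. RpL27 led, with 623, 640 and 664 CPM in batch 2 trimolters against 337, 396 and 311 CPM in batch 1 trimolters (log2 fold change 0.88, SE 0.16, edgeR adjusted p = 0.00483). RpL31 (778452), near the exit of the tunnel, had 623, 620 and 622 CPM in batch 2 trimolters against 346, 394 and 355 CPM in batch 1 trimolters (0.77, SE 0.11, edgeR adjusted p = 0.00146). The 23 were 29.9% of the members. The count was 0 in an edgeR fit to these 2 groups alone, where 0.712% of all tested genes rose. It was 48 with DESeq2 (62.3% of the members against 10.2% of all genes), 15 without a filter (19.5% against 4.39%) and 6 with the length trend removed (7.79% against 7.03%). It was 58 without batch 1 trimolter 2 (75.3% against 12.4%) and 15 without batch 1 tetramolter 2 or 3 (19.5% against 5.46% or 5.37%). It was 7 without batch 2 trimolter 3 (9.09% against 3.56%), and 5 without batch 1 trimolter 3 or batch 2 trimolter 1 or 2 (6.49% against 3.19% to 3.97%). With the length trend removed, the members' share was thus near the background. The 1 lower call was lost in the fit to these groups alone, and without batch 1 trimolter 1 there were 2. With the length trend removed the median was 0.20. The comparisons between batches reuse the libraries of those within batches, so their values are not independent of each other.

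By group means, 57 members ranked batch 1 tetramolters first, then batch 2 trimolters, batch 2 tetramolters and batch 1 trimolters. Another 16 had the last pair in the opposite order, and batch 2 tetramolters and batch 1 trimolters were not tested against each other. For RpS29, those groups had means of 80.6 ± 12.1 CPM (batch 2 tetramolters) and 79.6 ± 4.21 CPM (batch 1 trimolters; SD, n = 3 each), which differed by less than the spread between libraries. RpP0, RpL41, RpL7Ae and RpL20 each had an order of their own.

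Within batch 1 the members also moved together between libraries of 1 group. The median SD of log2 CPM over 3 libraries was 0.0865 for members in batch 1 tetramolters, 0.224 in batch 1 trimolters, 0.0497 in batch 2 tetramolters and 0.0389 in batch 2 trimolters, against 0.110, 0.272, 0.178 and 0.146 for all tested genes in the same groups. The batch 1 trimolters were the widest group. There, 75 of the 75 genes without RpL20 and RpL7Ae were highest in replicate 2, and 66 were lowest in replicate 1. In the batch 1 tetramolters 66 of 75 were highest in replicate 1. The batch 2 groups were more divided, with 30, 40 and 5 of 75 highest in tetramolter replicates 1, 2 and 3, and 38, 35 and 2 in trimolter replicates 1, 2 and 3. Relative to its mean over the 12 libraries, the median member stood at 0.77, 0.64 and 0.62 log2 units in the batch 1 tetramolters and at -0.57, -0.15 and -0.45 in the batch 1 trimolters. Leaving out batch 1 trimolter 1 or 2 put the batch 1 median of the members at 0.94 or 1.19, with 74 higher and 2 lower either way. Across the 12 libraries, 72 of 77 members correlated with the median member profile at r of at least 0.9, and the lowest were RpL7Ae (-0.666), RpL20 (-0.636), RpP0 (0.360), RpL41 (0.855) and RpS2e (0.899). The 75 genes without RpL20 and RpL7Ae make up that median, so these values describe the set and test nothing. Of the 10644 tested genes that were no member, 276 also reached r of at least 0.9.

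Of the genes outside the set with a symbol of their own, Tinp1 had the profile most like the median member (r = 0.996 over 12 libraries, of 1090 such genes). In yeast its counterpart Nsa2 helps the large subunit mature. Tinp1 had 369, 347 and 339 CPM in the batch 1 tetramolters, against 129, 172 and 128 CPM in the batch 1 trimolters, and 144, 156 and 150 CPM in the batch 2 tetramolters, against 193, 197 and 187 CPM in the batch 2 trimolters. Next came Ef1beta (0.989), a subunit of the exchange factor of elongation factor 1, RpLP2 (0.981), the initiation factor 3 subunits eIF3g (0.980) and eIF3h (0.977), Ef-1d (0.968), Rack1 (0.967), a scaffold protein on the small subunit, Miple (0.961), and the glutathione transferases GSTo2 (0.958) and GSTz2 (0.957).

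Other genes of translation and growth signalling changed less uniformly. Over all tested genes 22.5% rose and 22.7% fell in batch 1, and 19.5% rose and 18.2% fell in batch 2. Of 9 initiation factor genes, 6 rose and 0 fell in batch 1 with a median of 0.50, while 3 rose and 2 fell in batch 2 with a median of 0.07 (edgeR). Eif-4a, the helicase that unwinds mRNA for initiation, had a log2 fold change of 0.65 in batch 1 (SE 0.12, edgeR adjusted p = 9.72e-04) and -0.45 in batch 2 (SE 0.12, edgeR adjusted p = 0.0102). The smallest batch 1 adjusted p of these 9 belonged to eIF3g (1.29, edgeR adjusted p = 1.76e-05). In batch 2 eIF3g had -0.41 (edgeR adjusted p = 0.0152). Of 4 elongation factor genes, 3 rose in batch 1 and 1 fell in batch 2. EF1a, which brings aminoacyl-tRNA to the ribosome, had 0.41 in batch 1 (SE 0.16, edgeR adjusted p = 0.0512). The 2 ribosome biogenesis genes found by symbol, Nopp34 and Rrp40, both rose in batch 1, by 1.48 and 0.69. In batch 2 Rrp40 rose, by 0.48 (edgeR adjusted p = 0.0423), and Nopp34 did not pass (-0.26, edgeR adjusted p = 0.193).

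Of 5 genes of insulin and TOR signalling, the insulin receptor InR had 239, 245 and 240 CPM in the batch 1 tetramolters, against 125, 130 and 64.8 CPM in the batch 1 trimolters. It had 44.8, 45.5 and 39.3 CPM in the batch 2 tetramolters, against 165, 131 and 154 CPM in the batch 2 trimolters. InR thus moved in the direction of the ribosomal proteins in both batches, with 1.18 in batch 1 (SE 0.21, edgeR adjusted p = 9.74e-04) and -1.79 in batch 2 (SE 0.22, edgeR adjusted p = 1.35e-04). The transcription factor myc, which drives ribosome production in flies and mammals, moved the other way, with -0.96 in batch 1 (SE 0.13, edgeR adjusted p = 1.93e-04) and 0.87 in batch 2 (SE 0.13, edgeR adjusted p = 4.91e-04). Rheb, the small GTPase that activates TOR, fell in batch 2 (-1.09, edgeR adjusted p = 0.00929) and did not pass in batch 1 (0.39, edgeR adjusted p = 0.239). TOR1 and TOR2 passed in neither batch.

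Markers of the tissues pooled in these samples moved as well. All 4 muscle markers (Titin1, Titin2, Projectin and TpnI) rose in batch 1 and 3 of 4 fell in batch 2 (edgeR). The sums of these lists are again counts per 1e6 counts without TMM scaling, while values of single genes are TMM-scaled CPM. The muscle markers summed to 9179 to 10167 in batch 1 tetramolters, against 2638 to 6001 in batch 1 trimolters, and to 3048 to 3686 in batch 2 tetramolters, against 4671 to 5977 in batch 2 trimolters. Over all tested genes 22.5% rose and 22.7% fell in batch 1, and 19.5% rose and 18.2% fell in batch 2. Of 159 tested cuticle protein genes, made by the epidermis, 12 rose and 92 fell in batch 1, and 86 rose and 7 fell in batch 2. The 205 rows of that list summed to 50003 to 52669 in batch 1 tetramolters, against 75538 to 146266 in batch 1 trimolters, and to 116204 to 130179 in batch 2 tetramolters, against 68976 to 78565 in batch 2 trimolters. Within the batch 1 trimolters, TpnI was at 5611, 2509 and 3302 CPM, highest in the replicate where most ribosomal protein genes were lowest. The midgut markers Apn1 (429, 1900 and 1144 CPM) and Amy (35.9, 211 and 57.3 CPM) ran the other way there. So did the haemocyte markers PPO2 (334, 1510 and 558 CPM) and PPO1 (109, 695 and 224 CPM). Midgut and haemocyte markers were highest in replicate 2 and lowest in replicate 1, as were most ribosomal protein genes. Among 5 silk gland genes the fibroin heavy chain FIBH was at 0 in every library, and the list summed to at most 1.61. Haemocyte, midgut, fat body and nervous system markers (2 or 3 genes each) gave at most 1 call per list in batch 1 and in batch 2. Between tetramolters, batch 2 against batch 1, 3 of 4 muscle markers fell, and 111 cuticle genes rose and 9 fell. Between trimolters 1 muscle marker rose, 4 cuticle genes rose and 38 fell, and both haemocyte markers rose, PPO1 by 1.81 and PPO2 by 1.60 (edgeR adjusted p = 0.0365 and 0.0297). The part of these tissues in the ribosomal protein result was not tested.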

How the data were processed

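RNA with poly(A) tails was sequenced from both ends in 12 libraries, grouped by the labelled molting type and batch. The submitters' processing notes list HISAT2 2.2.1, Trimmomatic 0.39, DESeq2 1.38.3 and StringTie 2.2.1, and the labels' protocols give a different HISAT2 version. Not given in the sources used here were the counting program, strand setting, genome build and annotation. The authors deposited whole-number counts per gene, not normalized, and FPKM values scaled by length and depth. FPKM values of 11 libraries were used, since the column of batch 1 trimolter 2 held no values.

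Symbols came from the RefSeq table of ASM3026992v2, in which 14945 of the 17583 rows were found, and no coordinates were taken from it. The 511 loci that the authors numbered (0.210% to 0.264% of counts) were left out, following earlier processing of these data. The main test was edgeR 4.0.16 (R 4.3.3) with quasi-likelihood F-tests, TMM factors, filterByExpr by group and robust estimation. The robust setting was adopted after the fit without it had also been run. One model of 4 group means gave 5 contrasts: tetramolters against trimolters in each batch, the difference of these, and batch 2 against batch 1 in each molting type. Benjamini-Hochberg adjustment was over the 10721 genes of a contrast, with a threshold of 0.05. The SE is the size of the log2 fold change divided by the root of F. CPM were scaled by TMM library size, while sums over lists were counts per 1e6 counts without it. The tests are 2-sided, and statements on depth cover counting error only, as reads carried no molecular identifiers. Transcript length was the median, over libraries with at least 10 counts, of the length implied by count and FPKM.

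The members, lists and alternatives were chosen with earlier results of these data known. Members were named by rule. It took RpS29, RpL39, RpL7Ae, RpP0 and RpP1, and the 3 largest and 3 smallest changes of each subunit per contrast. It also took members called against the majority, members that did not pass in batch 1, and the highest and lowest FPKM of each subunit. For each other list the rule was the 2 smallest p, which was not followed throughout. Eif-4a and EF1a were described although other genes of their lists had smaller adjusted p in batch 1. The other genes named were added after their values were seen. Alternatives covered normalization, filter, DESeq2 1.42.0, samples in the fit, length trend (lowess, span 0.3), replicate block, numbered loci and each library left out. The fit was tested on simulated counts. No replicate pair was close enough to be 1 library deposited again. The batch 1 tetramolters were the closest replicates. Chi-square per gene between 2 libraries, larger where counts differ more, was 3.31 to 7.86 there. It was 17.6 to 32.1 within the batch 2 groups and 115 to 306 in batch 1 trimolters. Promoters and proteins were not analysed here. Values of some single members are not reported here, and these members stay in all counts.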

Additional observations from a re-analysis of the deposited data

Results flagged for a closer look

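The change between molting types differed between the batches, by edgeR's test of batch 2 change minus batch 1 change, for 74 members with a lower and 2 with a higher value in batch 2. The values below are that difference on the log2 scale, and each passed the adjusted threshold of 0.05.

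In the small subunit the difference was -2.66 for RpS29, -1.89 for RpS27, -1.85 for RpS21, -1.79 for RpS20 and -1.68 for RpS15A. It was -1.43 for RpS23, -1.34 for RpS18, -1.30 for RpS15, -1.20 for RpS19 and -1.10 for RpS24. For RpS6 the change decreased by 1.00 in batch 2 relative to batch 1. The smallest differences named in this subunit were -0.86 for RpS3, -0.86 for RpS2e and -0.82 for RpS4.

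In the large subunit the difference was -2.50 for RpL39, -2.47 for RpL37A, -2.17 for RpL27, -2.05 for RpL29 and -1.97 for RpL37. It was -1.87 for RpL35, -1.68 for RpL23, -1.59 for RpL31, -1.45 for RpL41 and -1.16 for RpP1. It was positive for RpL7Ae (2.91) and RpL20 (1.61).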

How the results depend on the processing

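The counts for batch 1, for the difference between batches and for tetramolters between batches stayed within 1.5 times their values under all 10 alternatives and with any 1 library left out, except that the fit to the compared groups alone cannot give the difference. In batch 2, the 8 members called lower became 3 without a filter on low counts, 27 with the length trend removed, 22 with a replicate block and the length trend removed, 41 in a fit to the compared groups alone and 25 with DESeq2, and 0 to 36 with 1 library left out. For trimolters between batches, the 23 called higher became 15 without a filter, 6 with the length trend removed, 6 with a replicate block and the length trend removed, 0 in a fit to the compared groups alone and 48 with DESeq2, and 5 to 58 with 1 library left out. The 1 called lower became 2 with the length trend removed, with or without a replicate block, 0 in a fit to the compared groups alone and 1 to 2 with 1 library left out. The cause was not tested.

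Over the 77 members and all settings run, the sign changed for RpP0 in batch 1 and for the difference, and for 6 members between trimolters, 3 of them named by rule (RpP0, RpL39 and RpP1). None of these values passed in any setting run. RpP0 was 0.01 in batch 1 with TMM factors computed without ribosomal protein genes and 0.01 with a replicate block, and -0.15 to 0.17 with 1 library left out. The RpP0 difference was 0.05 with the length trend removed, 0.04 with a replicate block added to that, and -0.30 to 0.01 with 1 library left out. Between trimolters, RpP0 was 0.00 with DESeq2 size factors, TMM factors without ribosomal protein genes, the compared groups alone and DESeq2, 0.01 with a replicate block, and -0.13 to 0.17 with 1 library left out. With the length trend removed RpL39 was -0.10 and RpP1 -0.05, and with a replicate block added -0.09 and -0.04. RpL39 was -0.04 to 0.27 with 1 library left out.

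Replicate numbers did not pair the libraries (correlations of same-numbered deviations -0.042 to 0.114). A replicate block left the counts at 74 and 2 in batch 1, 2 and 8 in batch 2, 2 and 74 for the difference, 23 and 1 between trimolters and 2 and 74 between tetramolters (higher and lower). Without robust estimation these were 74 and 2, 2 and 8, 2 and 74, 24 and 1, and 2 and 74. The robust setting of the main fit was adopted after both settings had been run.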
